A study of Mus musculus with 36 samples.

Results

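DNA methylation of Tet1 knockout (KO) embryonic brains was compared with that of heterozygous (HET) brains from dams kept on a folic acid (FA) depleted diet of 0.1 ppm. The comparison held 7 of the 36 libraries of the series, which are 5 KO and 2 HET embryos, each library being 1 whole brain at E11.5. The samples were chosen by their labels for genotype and diet. All 7 embryos came from matings of heterozygotes that carried the Tet1 tm1Koh allele on the 129S6.Cg background, and their dams had been adapted to the custom diet, which contained the antibiotic succinylsulfathiazole. HET embryos keep 1 intact copy of Tet1, and the KO allele disrupts the full-length transcript but leaves a downstream start in place, from which a short transcript can be made. The series also has a 3 ppm (control) and a 30 ppm (excess) diet, with 5 KO and 3 HET, and 6 KO and 5 HET embryos by their labels. KO replicate 1 of the 30 ppm diet is listed as HET in the study's own table of embryos. At a CpG in Tet1 described below it read 45% (9 of 20 reads) against 77.8 to 100% in the other 5 KO embryos of that diet. The main counts of tiles for 30 ppm are therefore given with and without it.

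TET1 is a dioxygenase that oxidises 5-methylcytosine (5mC) to 5-hydroxymethylcytosine and further forms, which are lost by dilution at replication or by base excision repair. Its CXXC domain directs the full-length protein to CpG-rich DNA. Folate feeds the one-carbon cycle, which supplies the methyl groups that DNA methyltransferases put on cytosine. Oxidative bisulfite sequencing converts 5-hydroxymethylcytosine to a base that reads as unmethylated, so that the levels given here are 5mC levels.

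The groups were not matched for sex or phenotype. Both HET embryos (replicates 1 and 3) were males of normal phenotype from litters 34 and 54. KO replicates 1 and 5 were their normal male littermates. KO replicate 2 was a female with the label inHB (a brain malformation) of litter 35, and KO replicates 3 and 4 were females with a neural tube defect (NTD) of litter 50. Sex and phenotype were therefore unbalanced between the groups, and counts with sex as covariate and from the normal males of litters 34 and 54 alone are given beside the main ones. HET replicate 2, a normal female of litter 35 with 23.2 M CpG read calls (M, 1e6), was the shallowest library of the diet and was left out. The other 7 libraries held 25.8 to 48.1 M read calls, and 1204849 autosomal CpGs were covered at least 5 times in all of them.

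The genotype labels were examined first at Tet1. At a CpG in a Tet1 intron (mm10, chromosome 10, position 62884019), the level was 77.8%, 76.9%, 69.6%, 88.2% and 96.2% in KO replicates 1 to 5, on 9 to 26 reads. It was 69.2% in HET replicate 1 on 13 reads (95% Wilson interval 42.4 to 87.3%) and 32.0% in HET replicate 3 on 25 reads (17.2 to 51.6%), with intervals that cover counting error only. HET replicate 1 thus read as high as the lowest KO embryo at this CpG. Over the neighbouring tile chr10:62885001-62886000 with 8 CpGs, both HET embryos lay apart from KO, with 44.0% and 45.1% against 66.0 to 78.6%. The difference there was 29.1 percentage points (adjusted p = 3.18e-08). The targeted allele carries DNA of another strain around it, so these levels serve as a check of the labels and not as a result, and their origin in methylation or in sequence was not tested.

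Sequence is shown for the regions on which the differences turn, so that the CpGs read can be seen. Each run is from mm10 (GRCm38.p6), plus strand, and the CpGs measured in all 7 libraries are in capitals. The first 4 runs lie within 1 kb of the start of genes among the 12 with the largest promoter differences, and the next 3 come from exonic, intronic and intergenic tiles with large differences, named below. The last comes from a tile that fell in KO. Runs stop at untranslated exon parts, outside which the Calhm2 promoter and the Zfp467 tile described below had 0 measured CpGs, so neither is shown.
Tmem233 (chr5:116082951-116083179, exon): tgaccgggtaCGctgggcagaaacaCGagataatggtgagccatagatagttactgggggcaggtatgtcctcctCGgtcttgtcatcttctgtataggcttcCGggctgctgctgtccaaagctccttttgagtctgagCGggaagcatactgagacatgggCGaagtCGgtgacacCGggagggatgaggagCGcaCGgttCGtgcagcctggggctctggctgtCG
Trim58 (chr11:58640468-58640767, exon): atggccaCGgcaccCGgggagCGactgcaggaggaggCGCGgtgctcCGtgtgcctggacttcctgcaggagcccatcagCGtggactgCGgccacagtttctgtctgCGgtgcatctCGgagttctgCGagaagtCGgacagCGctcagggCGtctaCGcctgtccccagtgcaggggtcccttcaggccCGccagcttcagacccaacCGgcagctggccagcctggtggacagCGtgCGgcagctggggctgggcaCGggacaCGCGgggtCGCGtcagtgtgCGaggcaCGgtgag
Sgo2b (chr8:63952311-63952356, upstream of the gene): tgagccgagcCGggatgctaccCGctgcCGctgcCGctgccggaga
Abcc9 (chr6:142702077-142702145, intron): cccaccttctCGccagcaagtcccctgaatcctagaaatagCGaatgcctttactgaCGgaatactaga
Cdh22 (chr2:165181111-165181149, exon): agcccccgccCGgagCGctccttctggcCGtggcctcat
Tbc1d8 (chr1:39390975-39390996, intron): gcaggctgcaCGcCGcactcCG
Intergenic, near Gm10647 (chr9:66806078-66806167): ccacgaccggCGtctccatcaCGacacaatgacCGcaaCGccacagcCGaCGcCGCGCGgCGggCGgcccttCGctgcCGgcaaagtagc
Intergenic, Gdf6 as nearest gene (chr4:9889110-9889224): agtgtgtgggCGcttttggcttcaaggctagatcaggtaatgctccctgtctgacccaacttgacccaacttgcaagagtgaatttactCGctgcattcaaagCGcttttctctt

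In the Tmem233 run, the levels of the 12 CpGs in capitals lay between 50.6% and 83.9% in KO (reads of the 5 embryos pooled) and between 2.38% and 46.2% in HET. The HET level was highest at the first capital CpG and lowest at the last, and KO was above HET at each of the 12. In the Trim58 run, which holds 26 measured CpGs, KO levels ranged from 29.7% to 87.5% and HET levels from 1.61% to 29.4%. The narrowest gap was at base 40 of the run, with 29.7% in KO and 23.5% in HET. At the 3 CpGs of the Abcc9 run, HET had 0 methylated of 32 reads each, which allows a level of up to 9.38%, and KO had 40.4% to 48.3%. In the intergenic run near Gm10647, all 13 CpGs had HET levels of 7.06% to 11.8%, and KO levels of 47.6% to 75%. The Gdf6 run showed the opposite order, with 48.1% to 58.6% in KO and 87.5% to 88.2% in HET on 16 or 17 reads per CpG.

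Mean methylation was higher in KO than in HET brains. Over the shared CpGs, the mean level was 39.01%, 39.02%, 38.75%, 38.63% and 39.14% in KO replicates 1 to 5, and 37.0% and 37.3% in HET replicates 1 and 3. All 5 KO embryos were above both HET embryos. The difference was 1.77 percentage points (KO 38.9% ± 0.212, SD, n = 5; HET 37.1% ± 0.204, SD, n = 2; two-sided exact permutation p = 0.0476, the smallest value that 5 against 2 embryos allow). Within litters it was 2.02 points in litter 34 and 1.86 in litter 54. It depended on the set of CpGs and their weight: with reads pooled, which weights CpGs by coverage, it was 1.06 points (exact permutation p = 0.333), and over the CpGs that each library covered on its own it was -0.376 points (exact permutation p = 0.857). CpGs below a level of 10% made up 52.2 to 53.0% of the shared CpGs in KO and 54.705% and 55.03% in HET. CpGs above 80% made up 32.6 to 34.29% in KO and 30.6% and 32.1% in HET.

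The genome was then cut into tiles of 1 kb, and each tile was tested for KO against HET (quasi-binomial model on methylated and unmethylated reads, Benjamini-Hochberg adjustment). A tile was called hyper or hypo where the adjusted p was under 0.05 and the group means differed by at least 10 percentage points, higher or lower in KO. Of 71670 tiles tested, 4844 (6.76%) were hyper and 28 (0.0391%) were hypo. With limma on arcsine square root levels 1916 were hyper and 8 hypo, and the hypo count was 10 at a minimum coverage of 10 and 131 with the dispersion fixed at 1. The median difference was 17.7 points in hyper tiles, 1858 of them differed by at least 20 points and 484 by at least 30. Their median level was 33.7% in HET and 58.1% in KO, while the median over all tested tiles was 86.5% and 88.6%. In 4602 of the 4844 hyper tiles, all 5 KO embryos lay above both HET embryos, as they did in 18.8% of all tested tiles. In the males of litters 34 and 54 alone, 4164 tiles were hyper and 17 hypo, and 3472 of the 4164 were among the 4844. With sex as covariate 4002 tiles were hyper, of which 3816 were among the 4844. The number of hyper tiles was 3919 without HET replicate 1 and 3565 without HET replicate 3, where the 1 remaining HET embryo is assumed to vary as the KO embryos do.

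**Figure D1:**
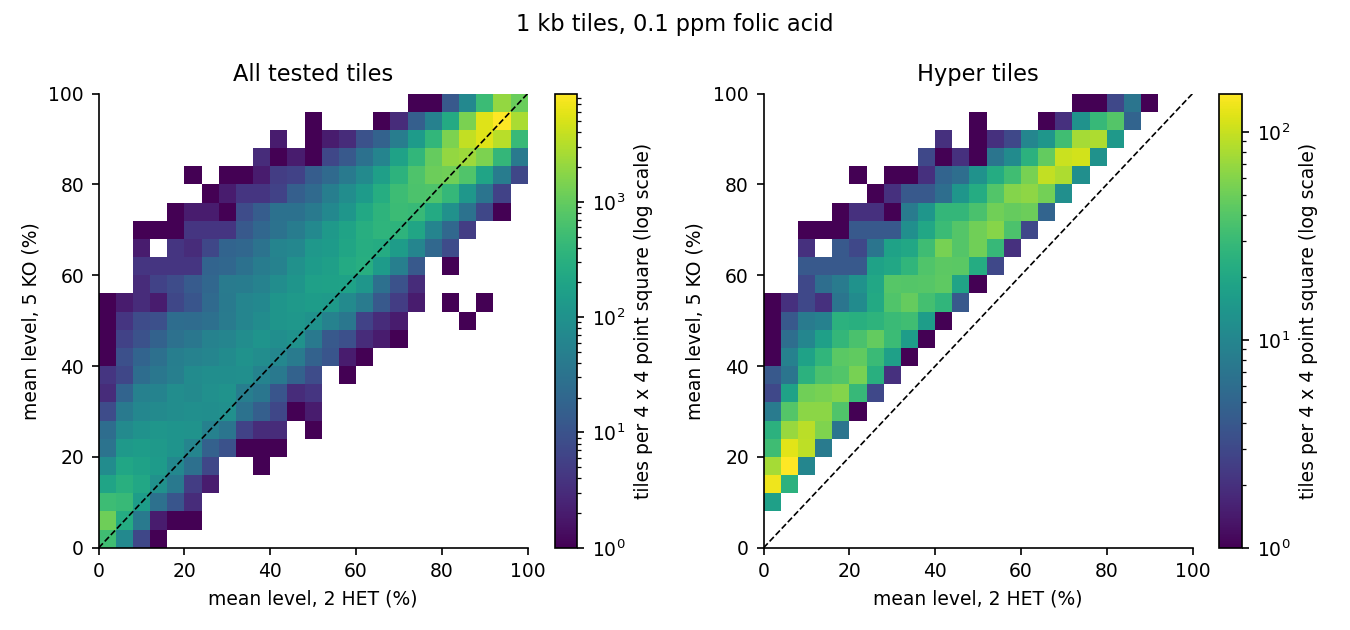
Mean level of 1 kb tiles in the 2 HET embryos (x axis, %) and the 5 KO embryos (y axis, %), for the 71670 tested tiles (left) and the 4844 hyper tiles (right). Colour gives the number of tiles per square on a log scale, the dashed line is equality, and hyper tiles spread over the range from unmethylated to nearly fully methylated in HET.

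Tiles of intermediate methylation had the largest median differences. When tiles were sorted by their level in the 3 HET embryos of the 3 ppm diet, which share no library with the comparison, the hyper share of tested tiles was highest, at 38.4%, where that level was 10 to 20%, and 36.23% where it was 20 to 30%. It fell to 6.33% of tiles at 70 to 80% and to 0.0752% at 90 to 100%. The median difference over all measured tiles was 8.90 points at 10 to 20%, 9.95 at 20 to 30% and 9.83 at 30 to 40%, and it was 0.426 points above 90%. Below 10% it was 0.276 points. A level near 100% leaves no room for a gain of 10 points. Only tiles with an SD of at least 2 points over the 7 embryos were tested, and a difference between the groups adds to that SD. Of the 25829 measured tiles below 10%, 4541 were tested and 862 were hyper, which is 19.0% of the tested and 3.34% of the measured tiles.

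**Figure D2:**
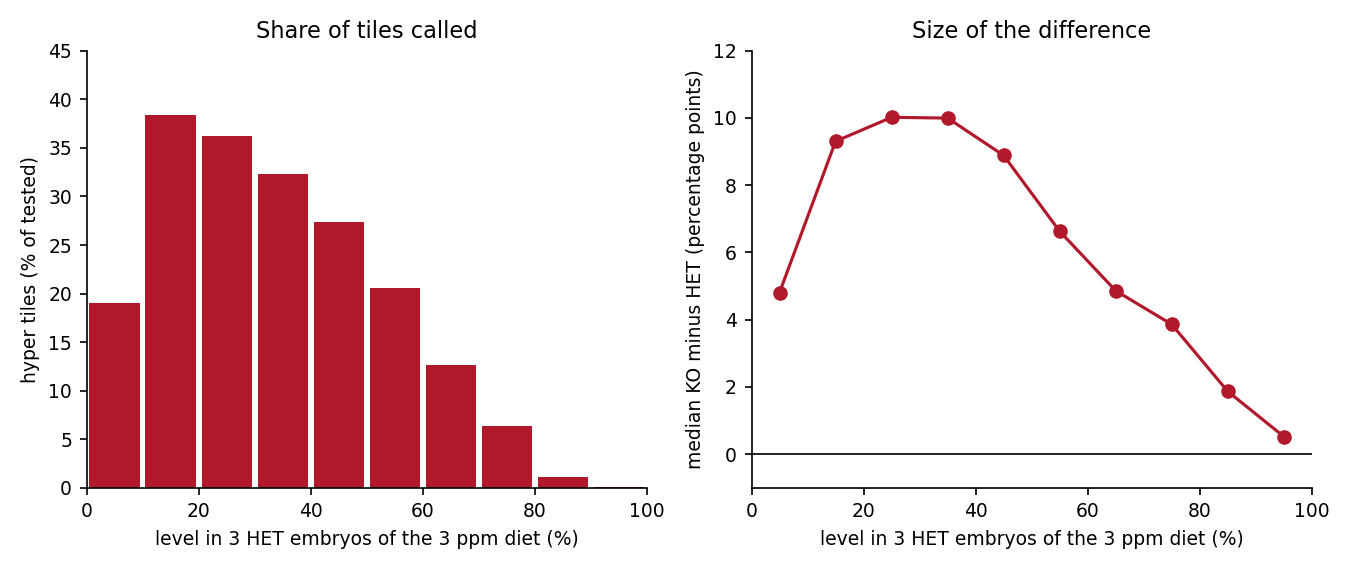
Share of tested tiles called hyper on the 0.1 ppm diet (left, %) and median difference KO minus HET in tested tiles (right, percentage points) by the level of the tile in 3 HET embryos of the 3 ppm diet (x axis, bins of 10%). The bars (left) and the points (right) are highest for tiles at 10 to 40% and near 0 above 90%.

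The share of hyper tiles by CpG content depended on whether it was taken over the tested or the measured tiles. Of tested tiles, 1.12% were hyper with fewer than 10 CpGs per kb, 3.97% with 10 to 19, 9.38% with 20 to 29, 17.1% with 30 to 39, 23.2% with 40 to 59 and 23.6% with 80 or more. Few CpG-rich tiles passed the SD filter, for example 174 of 4456 in the last class. Of all measured tiles, the hyper share was highest with 30 to 39 CpGs per kb (8.70%) and was 1.06% with fewer than 10 and 0.920% with 80 or more. By annotation, 19.8% of tested promoter tiles (within 1 kb of a protein-coding transcript start) were hyper, 9.75% of exonic tiles, 5.05% of intronic tiles and 5.14% of tiles between genes. Of measured tiles the order differed, with 7.34% of exonic, 4.58% of promoter, 4.35% of intergenic and 4.33% of intronic tiles. Promoter tiles made up 20.7% of the hyper tiles, exonic tiles 19.3%, intronic tiles 28.3% and intergenic tiles 31.7%. The 28 hypo tiles comprised 3 exonic, 11 intronic and 14 intergenic tiles and 0 promoter tiles. Hyper tiles occurred on each of the 19 autosomes, with shares from 4.47% on chromosome 18 to 9.03% on chromosome 11. On chromosome 10 between 55 and 75 Mb, around Tet1, 47 of 766 tested tiles (6.14%) were hyper.

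Around gene starts the difference followed the flanks of the unmethylated core. In the 250 bp upstream of the start the mean level was 2.08 to 2.29% in the 5 KO and 1.79% and 1.83% in the 2 HET embryos, a difference of 0.387 points. It widened to 2.27 points at 750 to 1000 bp upstream and to 3.20 points at 2500 to 2750 bp downstream. Between 250 and 1000 bp from the start the upstream side differed more, for example by 1.56 against 1.29 points at 500 to 750 bp. From 1 to 3 kb the downstream side differed more, for example by 3.09 against 2.24 points at 1750 to 2000 bp. KO embryos were above HET embryos in each of the 40 bins of 250 bp, without overlap.

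**Figure D3:**
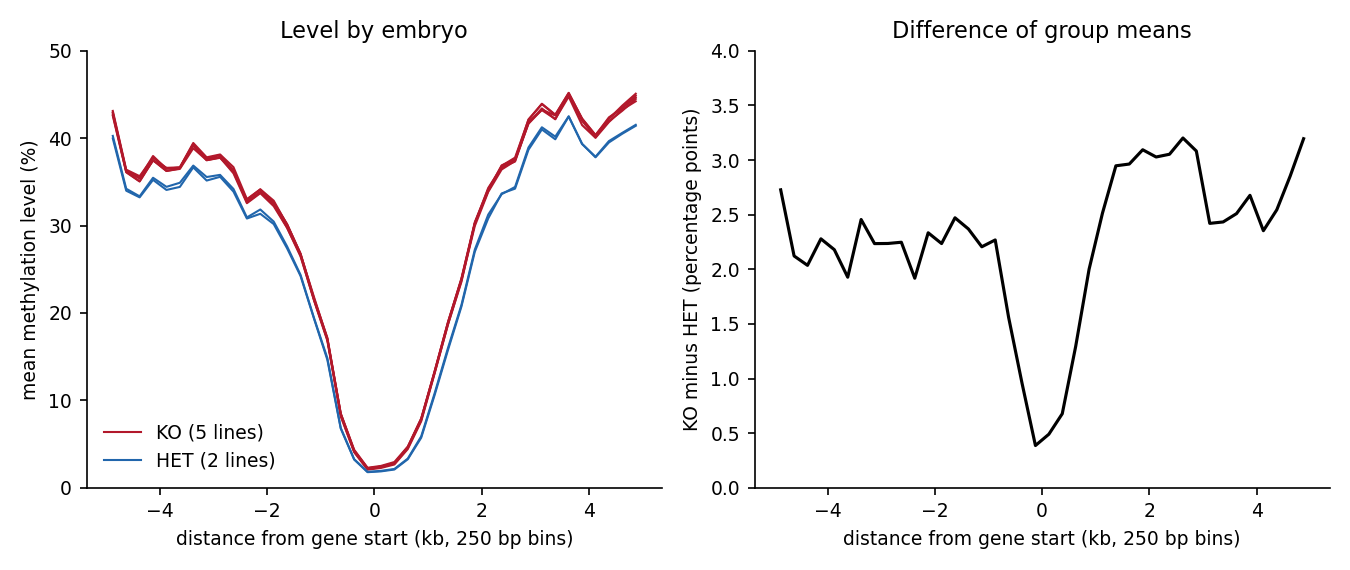
Mean methylation level by distance from the start of protein-coding genes (x axis, kb; bins of 250 bp) in each of the 5 KO and 2 HET embryos (left, %) and the difference of the group means (right, percentage points). Lines of the 2 groups do not overlap in any bin, and the difference is smallest at the gene start.

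Promoters were tested with 1 value per gene, over 1 kb to either side of the gene start. Of 13496 promoters measured, 2491 varied enough to be tested, 462 of these (18.5%) were hyper and 0 were hypo (quasi-binomial model; 0 also at an unadjusted p under 0.05 with a loss of 10 points, and 1 with limma). The median difference over all measured promoters was 0.267 points, and 11856 of them had a mean HET level below 10%. Of the 462 hyper promoters, 155 had a mean HET level below 10%, 231 lay between 10% and 50% and 76 above, and the 5 KO embryos lay above both HET embryos in 451, as they did in 1205 of all 2491 tested promoters (48.4%). Promoters of low CpG content were called most. With an observed to expected CpG ratio of 0.2 to 0.4, 274 of 1653 measured promoters (16.6%) were hyper, against 22 of 5507 (0.399%) at a ratio of 0.6 to 0.8.

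The 12 genes with the largest promoter differences were named by the size of their difference. The promoter of Tmem233 (chr5:116082244-116084244, 13 CpGs) had 63.7%, 67.8%, 73.5%, 76.3% and 71.6% methylation in KO replicates 1 to 5. HET replicates 1 and 3 had 16.1% and 20.7%. All KO embryos were more than 40 points above both HET embryos, and the means differed by 52.2 points (adjusted p = 9.34e-08). Calhm2 (chr19:47137294-47139294, 8 CpGs), of a family of calcium-regulated channels, was at 53.5 to 64.2% in KO and at 3.79% and 9.28% in HET. The difference was 50.9 points (adjusted p = 1.11e-06). Trim58 (chr11:58639465-58641465, 33 CpGs), which encodes an E3 ubiquitin ligase of red cell precursors, varied little within groups. Its level was 61.5%, 66.8%, 63.9%, 61.8% and 62.2% in KO and 13.2% and 13.4% in HET, a difference of 49.9 points (adjusted p = 8.43e-10).

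Abcc9 (chr6:142701315-142703315, 6 CpGs), the sulfonylurea receptor subunit of ATP-sensitive potassium channels, varied the most among KO embryos. Its level was 33.3%, 36.67%, 68.8%, 30% and 57.4% in KO on 30 to 112 reads, and 2.38% and 0.926% in HET (difference 43.6 points, adjusted p = 2.07e-04). Sgo2b (chr8:63951170-63953170), of the shugoshin family that guards centromeric cohesin, was at 76.4% ± 4.68 in KO (SD, n = 5) and at 26.6% ± 4.62 in HET (SD, n = 2). Prm2 (chr16:10795134-10797134), a protamine of sperm, was at 65.3% ± 6.26 and 21.9% ± 3.99. Sycp2l (chr13:41113307-41115307), related to a protein of the synaptonemal complex, was at 85.3% ± 2.38 and 41.96% ± 3.62. Spaca1 (chr4:34049191-34051191), an acrosomal protein of sperm, was at 71.9% ± 7.16 and 29.7% ± 2.11. The other 4 were Dsc3 (a desmosomal cadherin), Gm9817, Hhatl and Siah3, with differences of 44.9, 40.6, 39.7 and 39.3 points. At these 12 promoters the 2 WT embryos of the 0.1 ppm diet (1 at Abcc9) lay below all KO embryos, between 0% at Abcc9 and 56.6% at Gm9817. The promoters were chosen for KO levels above HET in the same KO embryos, so the choice favours this order. 1 of these embryos, labelled WT replicate 2, went against its label at Tet1, with 40.0% at the CpG given above against 6.25% in WT replicate 1.

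**Figure D4:**
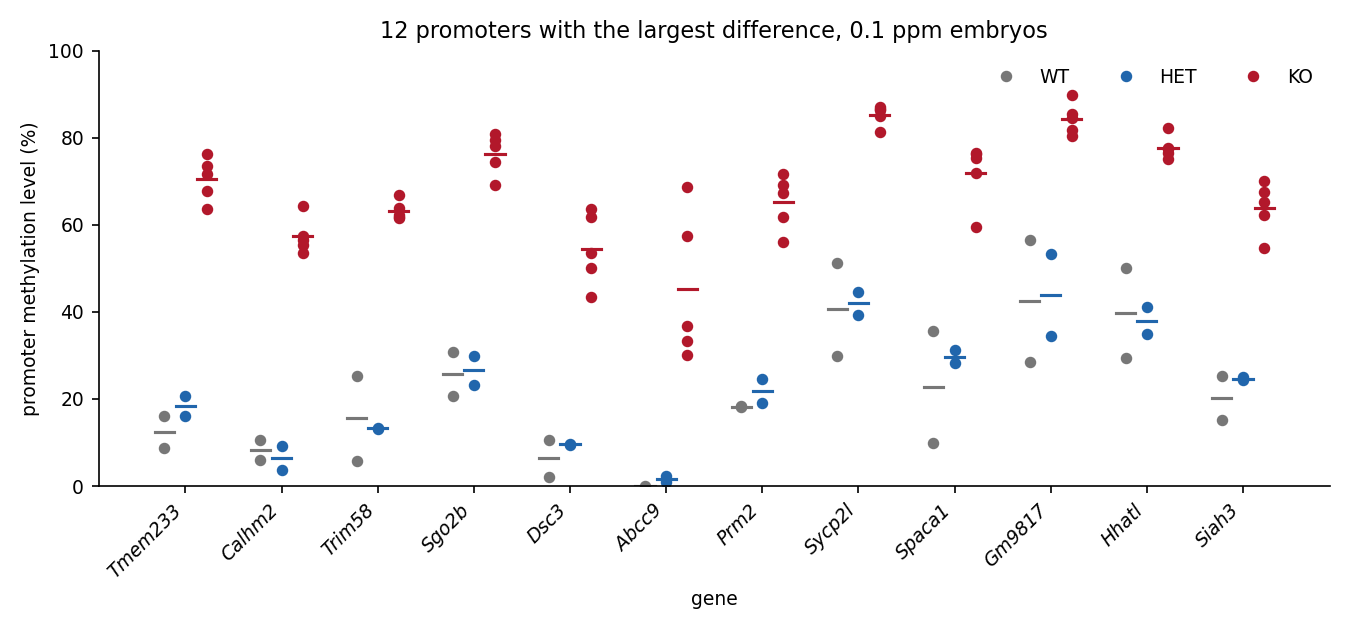
Promoter methylation level (y axis, %) of the 12 genes with the largest difference in the 2 WT (grey), 2 HET (blue) and 5 KO (red) embryos of the 0.1 ppm diet; each point is 1 embryo and short bars are group means. The genes were chosen for KO above HET, and the KO points lie above all HET and WT points of the same gene.

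The same 12 promoters were measured in the embryos of the other diets, which the choice of genes did not use. KO embryos lay above HET embryos without overlap in 12 of 12 promoters at 3 ppm and in 12 of 12 at 30 ppm (without KO replicate 1 of the 30 ppm diet). Of all promoters tested at 0.1 ppm, 42.3% and 38.5% showed the same on these diets. The mean differences were 23.9 to 52.1 points and 33.6 to 53.5 points. Tmem233, for example, was at 65.8 to 74.9% in KO and 16.9 to 19.0% in HET embryos at 3 ppm, and at 63.3 to 82.0% and 13.4 to 22.8% at 30 ppm. Abcc9 had the lowest KO levels at 3 ppm, 20 to 42.4% in the 4 KO embryos with enough reads, against 5.21 to 15.4% in HET. At the 12 promoters HET replicate 2 of the 0.1 ppm diet was also below all KO embryos of that diet. The choice of genes used these KO embryos and favours this order, and the share over all promoters was not taken.

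Outside promoters, the largest differences were as large as at promoters or larger. The intergenic tile chr9:66806001-66807000, 9.1 kb downstream of the start of Gm10647, had 71.5%, 72.0%, 74.2%, 80.2% and 56.9% in KO and 7.08% and 10.2% in HET. This was the largest difference of all hyper tiles, 62.3 points (adjusted p = 2.26e-20). An exonic tile of the zinc finger gene Zfp467 (chr6:48439001-48440000) was at 79.6 to 89.5% in KO and at 17.8% and 26.4% in HET, 61.3 points apart (adjusted p = 1.54e-18). A tile in an exon of Cdh22 (chr2:165181001-165182000), a cadherin of the nervous system, was at 67.02% ± 4.96 in KO and 9.49% ± 0.609 in HET, 57.53 points apart. An exonic tile of Dll4 (chr2:119328001-119329000), a Notch ligand, was at 64.0 to 91.2% in KO and at 24.5% and 15.9% in HET. Intronic tiles of Tbc1d8, Trat1 and Ksr2 (a scaffold of the Ras-MAPK pathway) differed by 53.1, 50.31 and 49.6 points, and an intergenic tile nearest to C2cd4b by 52.7 points.

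The 5 tiles with the largest loss, on 15 to 138 reads per embryo, were an exonic tile of Acap2 (chr16:31094001-31095000), intergenic tiles nearest to Gdf6, Rps24 and Cox10, and an intronic tile of Jag1, a Notch ligand (chr2:137093001-137094000). In the Acap2 tile, KO replicates 1 to 5 had 78.5%, 51.4%, 25.5%, 47.3% and 43.3%, and HET had 85.7% and 82.9%, on 30 to 65 reads (difference -35.1 points, adjusted p = 0.0114). In the Gdf6 tile (chr4:9889001-9890000) KO replicate 1 had 82.4%, between the 2 HET embryos at 80.8% and 95.8%, and the other KO embryos had 38.1 to 66.7%, on 15 to 26 reads (difference -34.6 points, adjusted p = 0.0203). The calls of these 5 tiles were lost among the males alone, and those of Acap2, Gdf6, Cox10 and Jag1 also with litter as a block. Of 22 hypo tiles that were also tested at 3 ppm, KO was lower there in 11 and 0 were called (quasi-binomial model), with a median difference of -0.771 points. Over all tiles tested on both diets, KO was higher at 3 ppm in 74.5%. At 30 ppm KO was lower in 12 of 20 hypo tiles, with or without KO replicate 1 of that diet, and 0 were called. Over all tiles KO was higher there in 74.5% with it and 78.4% without it.

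Genes were grouped into 20 lists by pathway, family or cell type, and called tiles were counted by gene over promoters and gene bodies. Over all protein-coding genes, 2410 of 12112 genes with a tested tile (19.9%) had at least 1 hyper tile, and 7.92% of their tiles were hyper. Among genes that pattern the brain, 13 of 36 had a hyper tile and 17 of 119 tiles (14.3%) were hyper, while their 54 measured promoters had a median level of 0.801% in HET and 0.791% in KO. Only 1 of these promoters varied enough to be tested, and it was not called. The largest promoter gain of the list was 8.55 points, under the minimum difference for a call. No method that used this cut could therefore call a promoter, whatever its p-value. The hyper tiles lay in introns of Pitx3, Lhx2, Emx1, Phox2a, Pax2, Pax5, Pax7, Lmx1b and Irx5, in exons of Gbx1 and Lhx8, and within 1 kb of transcript starts of Lhx3 and Nkx6-2. The Lhx2 intronic tile chr2:38367001-38368000 was at 62.5% ± 6.24 in KO and 29.4% in HET, and Vax1, with the smallest promoter difference of the list, was at 0.781% and 0.782%. These genes, and those named by their tiles in the next paragraphs, were picked for having a called tile after the values were seen.

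Signalling genes had hyper tiles in their bodies and at some transcript starts, to be read against 19.9% of all genes and 7.92% of their tiles. In the Wnt list, 15 of 47 genes had a hyper tile and 22 of 202 tiles (10.9%) were hyper, led by an intronic tile of the ligand Wnt3a (74.7% ± 4.44 in KO, 33.2% in HET). Receptors and modulators with hyper tiles included Lgr6, Ror2, Fzd5, Kremen2, Rspo1 and Notum. In the Sonic hedgehog list 5 of 18 genes had 1 hyper tile each, at Shh itself, Ihh, Hhip, Gli1 and Gpr161, and 5.88% of 85 tiles were hyper, below the share over all genes. The exonic Shh tile was at 25.5% ± 5.07 in KO and 7.42% in HET. Among axon guidance genes, 22 of 65 had a hyper tile, but 6.94% of their 461 tiles were hyper, also below it. Sema5b had the largest, an exonic tile at 67.8% ± 5.04 in KO and 16.1% in HET. Of the promoters measured in these lists (54, 19 and 65), only 6, 1 and 8 varied enough to be tested, and 0 were called. The largest promoter gains were 7.69, 4.06 and 4.93 points, under the cut of 10, so no method that used this cut could call one. Single tiles within 1 kb of a transcript start were nevertheless hyper at Sema4g, Sema3b, Rspo4, Epha6 and Rspo1, by 26.1, 17.4, 14.96, 10.7 and 10.2 points.

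Genes known for roles in neural tube closure were near or below the background of 19.9% of genes and 7.92% of tiles. 6 of 37 had a hyper tile (16.2%) and 7 of 216 tiles (3.24%) were hyper, at Rara, Shroom3, Nuak1, Scrib, Ptk7 and Map3k4. The Rara intronic tile was at 59.8% ± 16.4 in KO and 22.1% in HET. Of 47 promoters of this list measured, 0 varied enough to be tested.

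One-carbon genes included 3 hyper promoters of 10 tested (34 measured), against 18.5% of all tested promoters. Bhmt2 and Dmgdh, which encode a methyltransferase and a dehydrogenase of one-carbon metabolism, start within 1 kb of each other and share the same 18 CpGs, so they count as 1 region. It was at 24.2% ± 1.45 in KO and 8.74% ± 0.320 in HET (difference 15.5 points, adjusted p = 8.85e-06). The third was Aldh1l2, the mitochondrial 10-formyltetrahydrofolate dehydrogenase, at 23.8% ± 5.39 and 10.7% ± 3.804. An exonic tile of Ftcd, a folate enzyme of histidine breakdown, was at 80.2% ± 4.39 in KO and 42.2% in HET, and one of Shmt2, the mitochondrial serine hydroxymethyltransferase, at 80.3% ± 6.87 and 59.1%. In all, 5 of 33 one-carbon genes had a hyper tile (15.2%), and 5.21% of 96 tiles were hyper, against 19.9% of all genes and 7.92% of their tiles.

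Promoters were called among genes of neuronal excitability and of muscle, on few tested promoters each and beside 18.5% of all tested promoters. Of 9 tested promoters of neurotransmitter transporters, 4 were hyper (44.4%), which are Slc17a8 (the vesicular glutamate transporter VGLUT3, 69.8% in KO and 43.8% in HET), Slc6a7, Slc10a4 and Slc6a3 (the dopamine transporter, 13.4% and 2.63%). The potassium channel list had 4 hyper of 12 tested promoters (33.3%), with the largest difference at Kcna5 (26.5% ± 4.05 and 5.30% ± 0.765, adjusted p = 3.85e-06). In that list 21 of 63 genes (33.3%) had a hyper tile, against 19.9% of all genes with a tested tile. Among transmitter receptors, 1 of 6 tested promoters was hyper (16.7%), that of Grin2d, an NMDA receptor subunit, at 26.7% ± 3.56 and 3.67% ± 0.872. Of 15 tested promoters of muscle genes 4 were hyper (26.7%). Acta1, the skeletal muscle actin, was at 66.96 to 79.8% in KO and at 37.9% and 39.5% in HET (difference 35.98 points, adjusted p = 8.85e-06), and Myod1, Casq2 and Mybpc2 differed by 16.1, 16.9 and 17.4 points. Of 7 pluripotency promoters tested, 1 (14.3%) was hyper, that of Lefty1, a Nodal antagonist, at 49.8% ± 3.89 and 23.3% ± 7.72.

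In 5 further lists no tested promoter was called, although single tiles were hyper. Over all genes, 18.5% of tested promoters, 19.9% of genes with a tested tile and 7.92% of their tiles were hyper. The germline list had 25 tested promoters with 0 hyper, and its 34 measured promoters had a median level of 85.6% in HET and 86.0% in KO. This list does not hold Prm2, Sycp2l, Spaca1 or Sgo2b, whose promoters were hyper as given above. Of its 92 tested tiles 2 were hyper (2.17%), a tile at a transcript start of Sycp3 at 73.6% ± 4.40 in KO and 61.4% in HET, and an intronic tile of Smc1b at 72.5% ± 8.20 and 58.4%. Of 26 tested promoters of clustered protocadherins, the isoform genes that give neurons their surface identity, 0 were hyper, and the 29 measured had medians of 27.3% in HET and 33.4% in KO. Tiles within 1 kb of transcript starts of Pcdhac2 (17.8% ± 2.39 in KO, 6.85% in HET) and Pcdhac1 (42.89% ± 2.21, 32.8%) were hyper, as was an exonic tile of Pcdha1 (58.2% ± 3.47, 39.3%). These were 3 of 43 tested protocadherin tiles (6.98%). Of 11 tested promoters of maternal imprints 0 were hyper, and the 13 measured had medians of 41.35% and 42.98%. Intronic or promoter tiles of Grb10, Slc38a4 and Gnas were hyper, in all 4 of 45 tested tiles of that list (8.89%). The 37 measured Hox promoters had medians of 1.16% in HET and 1.62% in KO, with 0 of 7 tested called. Of 21 tested Hox tiles 1 was hyper (4.76%), in Hoxa7. The bHLH list had 0 of 5 tested promoters hyper, 6 of 12 genes (50%) had a hyper tile, and 7 of 44 tiles (15.9%) were hyper. The largest promoter gains in these 5 lists were 8.59 (germline), 9.10 (protocadherins), 9.83 (maternal imprints), 9.71 (Hox) and 9.34 points (bHLH). All lay under the cut of 10 points, so no method that used this cut could call any, whatever its p-value.

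Among the enzymes of the methylation cycle themselves, 0 of 2 tested promoters were hyper, and 10 of 58 tiles (17.2%) in 6 of 18 genes (33.3%) were. The largest promoter gain of the list was 9.45 points, under the cut of 10, so neither the quasi-binomial model nor limma could call a promoter. Over all genes with a tested tile, 19.9% had a hyper tile and 7.92% of tiles were hyper. Tet1 itself, where the targeted allele is, held 4 of the 10. Without Tet1, 6 of 48 tiles (12.5%) were hyper, and these lay in Tet2, Tet3, Dnmt3a, Smug1 and Apobec1. The intronic Dnmt3a tile was at 39.7% ± 1.80 in KO and 15.1% in HET, the exonic Tet3 tile at 66.4% ± 3.63 and 43.8%, and the larger Smug1 tile at 69.2% ± 4.09 and 32.6%.

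Promoters of cell type markers were also examined, since the files used here hold no expression data. Low levels there cannot identify a tissue, since the median over all 13496 measured promoters was 0.816% in HET and 1.01% in KO. Promoters of 8 measured neural progenitor markers had a median level of 0.547% in HET and 0.688% in KO, and those of 7 neuron markers 0.716% and 0.652%, with 0 tested in either list. Of 7 measured promoters of blood, vessel and mesenchyme markers, 3 were tested and 2 were hyper, beside 18.5% of all tested promoters. These were Col1a1 (26.9% ± 9.12 in KO, 6.67% ± 4.00 in HET) and Pdgfrb (16.5% ± 3.35, 2.95% ± 0.277). Over the 7 promoters of that list the median was 1.43% in HET and 1.38% in KO. Over promoters and gene bodies, 9 of the 47 tested tiles of that list (19.1%) were hyper, against 7.92% for all genes. They included tiles at transcript starts of Twist2, at 34.25% and 38.2% in KO and 8.28% and 15.1% in HET. The part of these cells in the results was not tested. In neuron markers 5 of 65 tested tiles were hyper (7.69%), close to the share over all genes, at Nefm, Rbfox3 and Elavl3. The largest Rbfox3 difference was in an intronic tile at 41.1 to 71.3% in KO and at 10.8% and 18.2% in HET.

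Regions that the authors had called in other embryos were used as sets fixed by independent libraries. At the 18369 regions hypermethylated in KO against WT on 3 ppm, the level was 52.1 to 53.0% in KO and 41.28% and 41.99% in HET embryos of the 0.1 ppm diet, a difference of 10.9 points. At the 8801 regions of the same comparison on 30 ppm it was 48.8 to 49.8% against 35.42% and 36.16%, 13.5 points apart. Regions that differed between diets in libraries labelled WT were also higher in KO. Some of these libraries went against that label at the Tet1 CpG, with 36.36% in WT replicate 2 of the 30 ppm diet (12 of 33 reads) against 0% in the other 2, and 40.0% in WT replicate 2 of the 0.1 ppm diet, so the sets that used them may not hold differences of WT embryos alone. The difference was 15.6 points at 857 regions higher on 30 than on 3 ppm in WT, 9.87 points at 2968 regions lower on 0.1 than on 3 ppm in WT, and 3.81 points at 2773 regions higher on 0.1 ppm in WT (2.03 without HET replicate 1 and 5.61 without HET replicate 3). At the last set the closest embryos were KO replicate 1 at 74.5% and HET replicate 3 at 74.4%. At regions hyper in HET against WT on 3 ppm (6029) the difference was 11.9 points, and at those hypo in HET (524) 2.75 points. The mean HET level was 41.6%, 35.8%, 40.0%, 47.9%, 72.7%, 56.1% and 59.8% at the 7 sets, in the order given. Over all measured tiles at 30 to 40% in HET embryos of the 3 ppm diet, the median difference was 9.83 points. It was 8.77 at 40 to 50%, 6.52 at 50 to 60% and 3.68 at 70 to 80%. Medians of tiles and pooled levels are unlike measures, and an excess at the sets was not tested. In each of these 7 sets all 5 KO embryos lay above both HET embryos (exact permutation p = 0.0476 each, 0.0476 after adjustment over the 7 sets, the smallest value possible). Among KO embryos the spread at the first set was 0.933 points, with 52.6% and 53.0% in the 2 normal embryos, 52.8% in the inHB embryo and 52.2% and 52.1% in the 2 embryos with NTD.

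**Figure D5:**
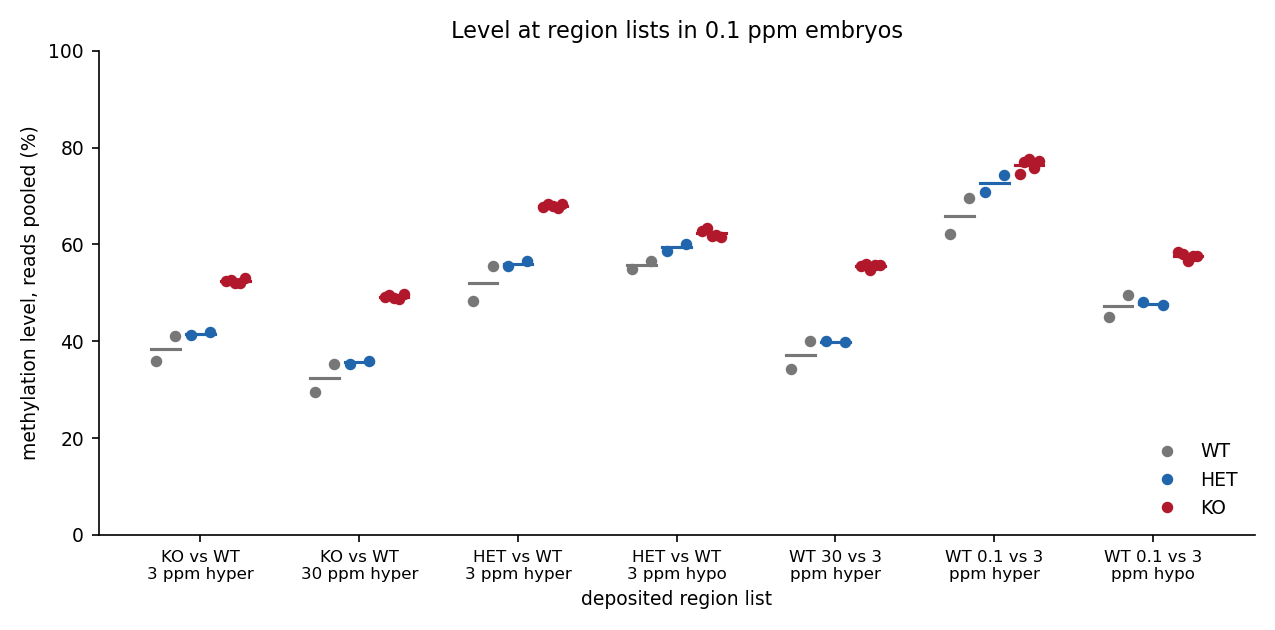
Level (y axis, %, reads pooled over CpGs covered in all 9 libraries) at 7 deposited sets of regions (x axis) in the WT (grey, 2), HET (blue, 2) and KO (red, 5) embryos of the 0.1 ppm diet; each point is 1 embryo and short bars are group means. The KO points lie above the HET points in each set, and the library labelled WT replicate 2 is the upper grey point.

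Sets that were called with libraries of this comparison are described by value alone. At 6681 regions hypermethylated in KO against WT on 0.1 ppm, which used the KO embryos, HET embryos were at 33.0% and 33.9% and KO embryos at 47.3 to 48.0%. Over the CpGs covered in all 9 libraries, the embryos labelled WT replicates 1 and 2 were at 26.9% and 32.2% there, and the HET embryos at 32.8% and 33.7%. At the regions hypermethylated in HET on 0.1 ppm against 3 ppm, only 37 CpGs were shared, with 38.33% and 39.12% in HET and 60 to 72.7% in KO.

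Finally, the comparison of KO with HET was run on the other diets, which share no library with it, to ask whether the depleted diet changed the difference. At 3 ppm 5087 of 65307 tested tiles were hyper (7.79%) and 12 hypo. At 30 ppm 6806 of 76830 were hyper (8.86%) and 11 hypo without KO replicate 1, and 3348 of 76669 (4.37%) and 4 with it as labelled KO. Of 4327 tiles hyper at 0.1 ppm and tested at 3 ppm, 3061 were hyper there too, which is 70.7% of these 4327 and 63.8% of the 4795 tiles hyper at 3 ppm among those tested on both diets. KO was above HET at 3 ppm in 98.9% of the 4327, with a median of 15.6 points, against 74.5% and 2.56 points over all tiles tested in both. At 30 ppm 2318 of 4541 (51.0%) were hyper too, which is 74.3% of the 3119 hyper there among tiles tested on both diets. Without KO replicate 1 it was 3428 of 4547 (75.4%), or 55.7% of 6153.

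The test of the difference between diets called 0 tiles. For 0.1 against 3 ppm, 0 of 58913 tiles passed (quasi-binomial model, genotype by diet term), 1246 had an unadjusted p under 0.05 with a difference of at least 10 points between the diets, and of these the gain in KO was larger at 0.1 ppm in 547 and smaller in 699. For 0.1 against 30 ppm, 0 of 65306 tiles passed, and 1163 were past the unadjusted threshold, with a gain larger at 0.1 ppm in 706 and smaller in 457. Without KO replicate 1 of the 30 ppm diet 0 passed and this order turned, with 489 larger and 921 smaller. With the dispersion fixed at 1, which makes no allowance for variation between embryos, 209 and 441 tiles passed. The count of 441 includes KO replicate 1 of the 30 ppm diet and was not taken without it. With litter as a block 2 tiles passed for 0.1 against 3 ppm, both with a larger gain at 0.1 ppm, and 0 for 0.1 against 30 ppm. The gain in mean level was 1.69 points at 0.1 ppm and 1.84 at 3 ppm over the CpGs shared by both (exact permutation within diets p = 0.929), with KO 36.33% ± 0.402 (SD, n = 5) and HET 34.49% ± 0.277 (SD, n = 3) at 3 ppm. Over the CpGs shared with 30 ppm it was 1.73 points at 0.1 ppm and 1.52 at 30 ppm (exact permutation p = 0.838), or 1.94 at 30 ppm without KO replicate 1 (exact permutation p = 0.832). The permutation moved genotype labels within each diet and did not first remove the genotype difference. That difference therefore enters the spread against which the gap between diets is set. These p-values cannot decide whether the gain differed between diets, and they do not show that it was equal.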

How the data were processed

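The per-sample tables deposited by the authors give, for each CpG, the methylated fraction and the coverage as a count of reads. They were made by the authors from oxidative bisulfite reduced representation libraries (MspI and TaqI) with Trim Galore 0.6.10, Bismark 0.24.1 and UMI-tools on mm10, per the submitters' processing notes. Positions count from 0 in the files and from 1 here. Fraction times coverage gave methylated reads, which were whole numbers in all libraries (tolerance 1e-06). CpGs covered at least 5 times in all 7 libraries were summed over 1 kb tiles or 1 kb to either side of the start of protein-coding genes (GENCODE vM21), with at least 3 CpGs. Deposited region lists (intervals, with no value used) were summed in the same way.

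Levels are percent of reads, and differences are percentage points between group means over embryos. Regions with an SD of at least 2 points were fitted by a quasi-binomial logistic model. The dispersion was moderated across regions by the method of limma (squeezeVar) with a lower bound of 1 (Python 3.11.15, scipy 1.17.1). The fit was also run on simulated data, and no result given here rests on that run. Median reads per tested tile were 57 to 109 per library. Single values used exact permutation over embryos. Embryos are separate animals, and litters 34 and 54 pair a KO with a HET embryo by their labels, so litter was used as a block in an alternative (correlation of the littermates' deviations from the group means over tiles, 0.0976 and 0.0659). Overlapping genes were assigned by position, and a tile takes its annotation from the centre of its CpGs.

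The embryos, gene lists and tests were chosen with earlier results of these data known. Genes were named by rule: the 12 largest hyper promoters, the 3 largest hyper tiles each in exons, introns and between genes (all KO above both HET), the 5 largest losses, up to 2 called promoters and the least changed promoter of each list, and Tet1. An item that this rule names is not reported here. The files used here hold no expression values. The test of mean level between diets was added after the data were seen.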

Additional observations from a re-analysis of the deposited data

Results flagged for a closer look

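Of 72 values looked at over the 5 KO embryos, 5 had 1 embryo apart from the other 4 by Dixon's 95% criterion, and chance gives about 1 in 20. At regions higher on 30 than on 3 ppm in WT, KO replicate 3 was lowest, at 54.81% against 55.7 to 56.1% in the others. KO replicate 1 was lowest at the Spaca1 promoter, at 59.5% against 71.8 to 76.5%, highest in the hypo tile of Jag1, at 50% against 19.7 to 27.1%, and highest at the Gata4 promoter, at 1.09% against 0.445 to 0.621%. KO replicate 4 was highest in the Tbc1d8 intronic tile (Rpl31 is the nearest gene start), at 92.3% against 66.7 to 68.8%.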

How the results depend on the processing

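The excess of hyper over hypo tiles and promoters held under each alternative run. The hyper tile count of 4844 became 1858 at a minimum difference of 20 points and 1916 with limma on arcsine square root levels, of which 1902 were among the 4844; it was 3995 with the replicate block (litter), 4002 with sex as covariate, 4787 without the 2 embryos with NTD and 5173 with HET replicate 2, and 3565 to 5209 when 1 embryo was left out. Hyper promoters fell from 462 to 181 at 20 points. They numbered 409 with litter as a block and 357 to 460 with 1 embryo left out.

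The 28 hypo tiles became 10 at a minimum coverage of 10, 15 with at least 5 CpGs, 5 at 20 points, 16 with sex as covariate, 17 in males, 8 with limma and 131 with the dispersion fixed at 1. Hypo promoters, 0 in the report, were 1 with litter as a block, with sex as covariate, without the embryos with NTD and with limma, 2 in males, 3 with the dispersion fixed at 1, and 0 to 2 with 1 embryo left out. Mean methylation turned to -0.376 over each library's own CpGs and was 1.06 with reads pooled; the cause was not tested. For the regions hyper in HET against WT on 3 ppm, leaving out 1 embryo gave 11.5 to 12.4 points. For those higher on 0.1 than on 3 ppm in WT it gave 2.03 to 5.61, and the lowest value was without HET replicate 1. The mean of the 2 within-litter differences was 1.94 points for mean methylation and 2.61 to 15.8 for the 7 sets. Tests between diets called 209 (3 ppm) and 441 (30 ppm, with KO replicate 1 of that diet) tiles with the dispersion fixed at 1, and 2 for 3 ppm with litter as a block. The number of HET embryos and 57 to 109 reads per tile limit the precision.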

Other observations

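Hyper tiles occurred next to each other. Of 1662 hyper tiles with a tested neighbour at 1 kb, 680 (40.9%) had a hyper neighbour, against 1127 of 12580 other tiles (8.96%). Neighbouring tiles share local CpG content, and only reads that span their boundary can enter both. No test was made. The longest run was 6 tiles at chr15:76292001-76298000, near Smpd5. The genes with the most hyper tiles were the long gene model Gm20388 (73 of 579 tested tiles), Casz1 (10 of 34), Cux2 (8 of 36), and Fgfr2, Nfic and Prdm16 with 7 each (of 132, 14 and 55). Over all protein-coding genes 7.92% of tested tiles were hyper, and Fgfr2 lay below that share, at 5.30%. They were picked for their counts after the values were seen.

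The X chromosome was left out of the comparison because the groups differ in sex. In the 4 males, over 21631 X-linked CpGs, the mean level was 43.9% and 43.8% in KO replicates 1 and 5 and 42.6% and 42.8% in HET replicates 1 and 3. The difference was 1.23 points in litter 34 and 0.972 in litter 54, and over the autosomal CpGs of the same embryos 2.09 and 1.92 points. Of 2076 X-linked tiles, 69 (3.32%) were at least 10 points higher in KO in both litters and 9 (0.434%) lower. On autosomes these shares were 5.49% and 0.215%. With 2 embryos a group, no test was made.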
